A study of Mus musculus with 24 samples.

Results

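Collagens are the main structural proteins of the matrix around fat cells and the stromal cells between them. The 44 collagen genes described here were taken from the 27179 genes of the deposited expression table by symbol, as every symbol made of Col, a type number, the letter a and a chain number. They comprise 11 fibrillar chains, the 6 basement membrane chains of type IV, the 6 microfibrillar chains of type VI, 9 FACIT chains and 12 other chains. Of these, 38 passed a filter on low values (10 or more normalised counts in 3 or more libraries) and entered the test with 14517 genes in all. The 6 chains below that level were Col2a1, Col9a1, Col9a2, Col10a1, Col19a1 and Col22a1.

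The libraries are bulk RNA sequencing of PDGFRb+ cells sorted by flow cytometry from white adipose tissue of C57BL/6 mice. Gonadal fat was divided into FIP and APC cells, names that usually stand for fibro-inflammatory progenitors and adipocyte progenitor cells, and inguinal fat into DPP4_pos and DPP4_neg APCs. Each of these 4 populations was taken from males (M) and females (F), which gives 8 groups of 3 libraries. The gates that separated FIP from APC cells and the age of the mice are not given in the sources used here, and the labels do not tie the libraries of a group to individual mice. The p-values therefore reflect only how far libraries of a group differed, and that spread may be technical.

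Fibrillar collagens such as types I and III are secreted as procollagens, trimmed by proteases and assembled into the fibres that give adipose stroma its tensile strength. Type IV collagen forms the sheet-like network of the basement membrane that wraps each adipocyte and vessel, type VI forms beaded microfibrils that are abundant around adipocytes, and FACIT collagens sit on fibril surfaces and link them to other matrix. Fibroblastic stromal cells, which include adipocyte progenitors, are a main source of the fibrillar chains in fat.

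Recovered reads ranged between 9152470 and 18221692 per library, and pairs of libraries of a group correlated at r = 0.982 to 0.992 across genes. The fibroblast and progenitor markers Pdgfra, Pdgfrb, Dcn, Lum, Ly6a and Cd34 summed to between 156859 and 228043 normalised counts in every library. Dpp4, for which the inguinal groups are named, had 14883 to 16085 normalised counts in male and 17356 to 20848 in female DPP4_pos libraries, against 235 to 258 in male and 1150 to 4213 in female DPP4_neg libraries. It also separated FIP libraries, at 4483 to 5096 in males and 7911 to 9371 in females, from APC libraries, at 159.9 to 218 in males and 1060 to 1461 in females. The 3 F_DPP4_neg libraries carried an epithelial signal, with 8 markers that include Epcam, Cdh1 and Krt14 summing to 3622, 8625 and 5039 normalised counts, against 340 at most in any other library. All libraries of that group carry it, so no value for the group without it can be given. Since the RNA was pooled over many cells, fewer cells that make a transcript and less of it per cell cannot be told apart.

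The stretches just upstream of 4 collagen genes with differences described below are printed for reference, and their part in those differences was not tested. Col1a2 and Col3a1, on chromosomes 6 and 1, are fibrillar chains that were lower in gonadal than in inguinal cells, and Col4a5 and Col4a6 are X-linked type IV chains that were higher in male than in female gonadal cells. Each window holds the 200 bases before the outermost annotated start in RefSeq on GRCm38.p6, 5′ to 3′ on the gene's own strand. Capitals mark the GC box, which is GGGCGG. They also mark the CCAAT box, named for its letters, and the TATA box, searched here as TATAAA. All were searched on both strands.
Col1a2, chr6:4505418-4505617, plus strand: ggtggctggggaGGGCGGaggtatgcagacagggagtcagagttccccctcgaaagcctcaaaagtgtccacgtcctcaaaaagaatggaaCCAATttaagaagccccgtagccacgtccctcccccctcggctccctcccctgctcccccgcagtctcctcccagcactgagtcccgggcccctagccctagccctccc
Col3a1, chr1:45311338-45311537, plus strand: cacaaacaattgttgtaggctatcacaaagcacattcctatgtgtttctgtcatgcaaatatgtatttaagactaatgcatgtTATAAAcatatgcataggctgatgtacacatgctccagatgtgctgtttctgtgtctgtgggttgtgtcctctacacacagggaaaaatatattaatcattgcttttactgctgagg
Col4a5, chrX:141475170-141475369, plus strand: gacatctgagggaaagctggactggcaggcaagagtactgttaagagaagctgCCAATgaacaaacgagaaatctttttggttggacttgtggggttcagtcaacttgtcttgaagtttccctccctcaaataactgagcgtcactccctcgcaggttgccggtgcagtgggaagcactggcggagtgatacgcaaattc
Col4a6, chrX:141474096-141474295, minus strand: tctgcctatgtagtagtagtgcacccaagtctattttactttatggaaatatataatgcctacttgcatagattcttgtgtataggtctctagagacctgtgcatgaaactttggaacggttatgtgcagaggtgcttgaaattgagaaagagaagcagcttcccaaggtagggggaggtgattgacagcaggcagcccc
The Col1a2 window held 1 GC box and 1 CCAAT box, the Col4a5 window 1 CCAAT box, the Col3a1 window 1 TATA box and the Col4a6 window none of these letters. Over 32843 RefSeq windows of the same length, 31.1% held the GC box letters, 29.4% the CCAAT letters and 9.96% the TATA letters. Col4a6 and Col4a5 stand head to head on the X chromosome, with 1274 bases between their outermost starts, and a match of letters describes the sequence only.

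Inguinal DPP4_neg cells gave the most collagen transcript of the 4 populations in both sexes. In gonadal fat the 44 genes together took 4.87 ± 0.542% of all normalised signal in M_FIP (mean ± SD, n = 3 per group here and below) and 5.80 ± 0.671% in F_FIP libraries, against 6.09 ± 0.267% in M_APC and 5.80 ± 0.367% in F_APC libraries. In inguinal fat the share was 6.05 ± 0.379% in M_DPP4_pos and 7.29 ± 0.827% in F_DPP4_pos libraries, against 11.9 ± 0.797% in M_DPP4_neg and 11.4 ± 1.09% in F_DPP4_neg libraries. No DPP4_neg library overlapped a library of the other 3 populations.

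**Figure D1:**
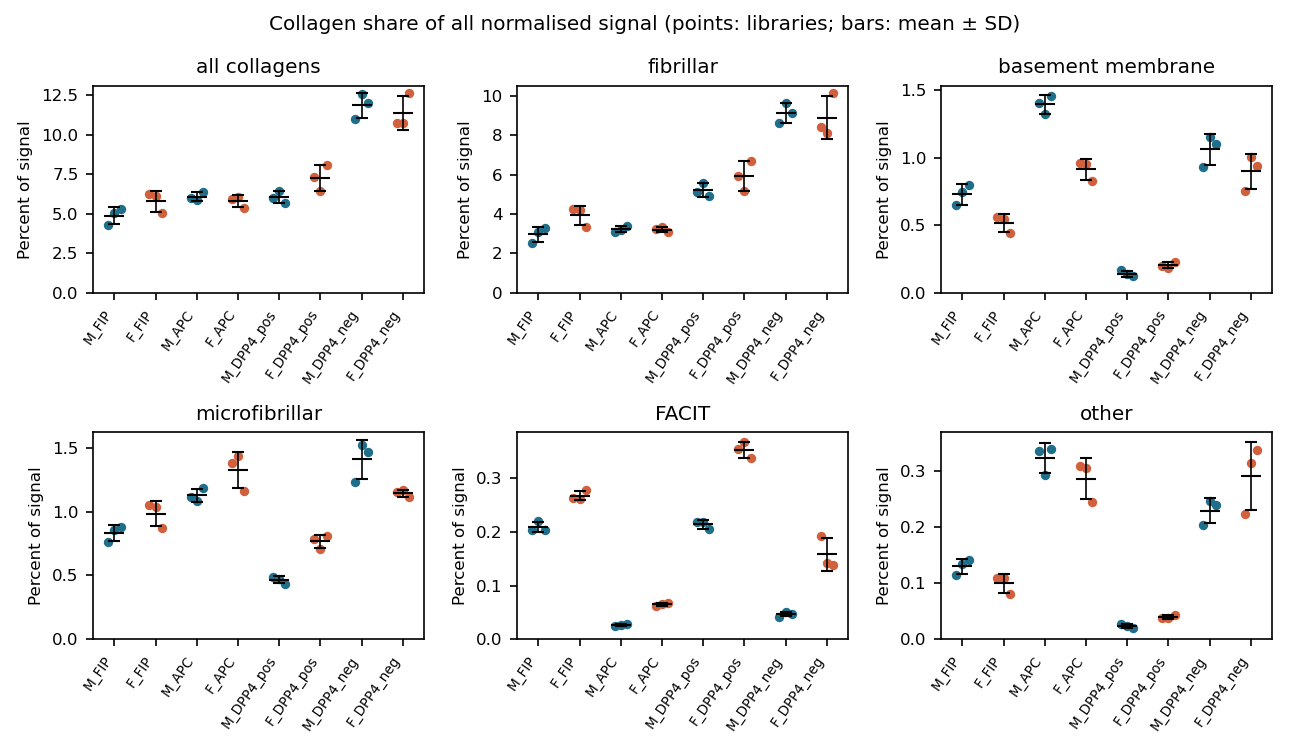
Share of all normalised signal taken by each collagen class (vertical axes, percent) in the 8 groups, with a point per library (blue males, orange females) and a bar at the mean ± SD. Fibrillar chains are the largest class in every group and are highest in DPP4_neg cells. The FACIT sum, of which Col14a1 is the largest part, is higher in FIP and DPP4_pos than in APC and DPP4_neg cells.

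The share of each class differed between populations. Fibrillar chains took 2.97 ± 0.388% of the signal in M_FIP and 3.22 ± 0.148% in M_APC libraries, against 5.20 ± 0.349% in M_DPP4_pos and 9.13 ± 0.509% in M_DPP4_neg libraries. In females the FIP mean was the higher one in gonadal fat, at 3.93 ± 0.500% in F_FIP and 3.21 ± 0.120% in F_APC libraries. The inguinal shares were 5.93 ± 0.766% in F_DPP4_pos and 8.90 ± 1.07% in F_DPP4_neg libraries. Basement membrane chains took 0.73 ± 0.077% of the signal in M_FIP against 1.40 ± 0.0692% in M_APC libraries, and 0.517 ± 0.0655% in F_FIP against 0.914 ± 0.0768% in F_APC libraries. This class was lowest in DPP4_pos cells, at 0.143 ± 0.0224% in males and 0.205 ± 0.024% in females, against 1.06 ± 0.117% in male and 0.899 ± 0.132% in female DPP4_neg cells. The FACIT sum ran the other way, with 0.209 ± 0.00939% in M_FIP against 0.0264 ± 0.00232% in M_APC libraries. It was 0.214 ± 0.00816% in M_DPP4_pos against 0.0465 ± 0.0039% in M_DPP4_neg libraries. Female libraries had 0.267 ± 0.00867% in F_FIP against 0.0650 ± 0.00296% in F_APC. They had 0.353 ± 0.0152% in F_DPP4_pos against 0.158 ± 0.0303% in F_DPP4_neg. Col14a1 was the largest part of the FACIT sum in every group, and not all FACIT chains shared its direction. Col20a1 was called lower in FIP than in APC and in DPP4_pos than in DPP4_neg cells, in both sexes. Col12a1 was called lower in F_DPP4_pos than in F_DPP4_neg cells. Type VI chains ranged between 0.466 ± 0.0284% in M_DPP4_pos and 1.41 ± 0.154% in M_DPP4_neg libraries, the lowest and highest of the 8 group means.

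Per kilobase of exon, Col3a1 had the highest level of all collagens in every group. This chain of type III collagen, the partner of type I in soft tissue fibres, held ranks 1 to 5 among all genes by normalised count, and rank 1 in 5 libraries. Its group means ran between 30819 normalised counts per kilobase in M_FIP and 112694 in M_DPP4_neg cells. Col1a1 and Col1a2, the chains of type I collagen, followed in inguinal cells, with 71004 and 54911 per kilobase in M_DPP4_neg cells. In M_APC cells the second level was that of Col4a1, the common type IV chain, at 15937 per kilobase, above Col1a2 at 13604 and Col1a1 at 9077.

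The ratios between partner chains varied unequally. The per-kilobase ratio of Col4a1 to Col4a2 ranged from 1.68 to 2.32 over the 24 libraries, that of Col6a1 to Col6a2 from 0.879 to 1.47 and that of Col1a1 to Col1a2 from 0.615 to 1.33. By contrast, Col3a1 to Col1a1 ranged from 1.10 to 3.92 and Col4a5 to Col4a6 from 5.64 to 51.8. Col8a1 to Col8a2, the short chains of type VIII collagen, ranged from 0.170 to 35.6. The highest type VIII ratio was in M_DPP4_pos, where Col8a2 had only 8, 6 and 4 reads per library. Col4a1 overlaps Col4a2 by 85 bases and Col4a4 overlaps Col4a3 by 114 bases by RefSeq gene spans, and since the strand setting of the counting is not given in the sources used here, reads in those stretches cannot be told apart.

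**Figure D2:**
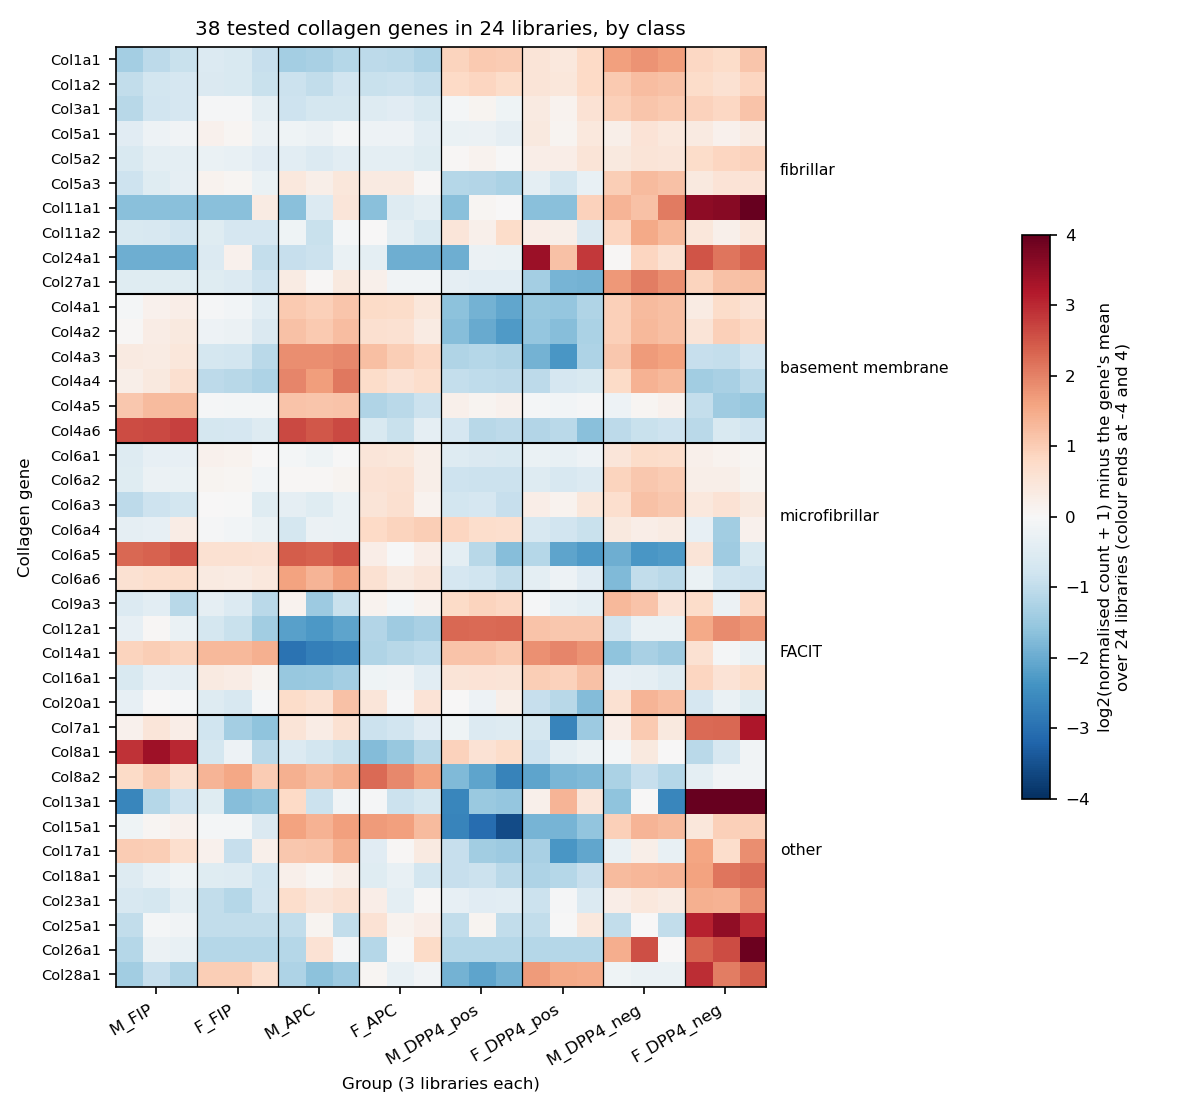
Levels of the 38 tested collagen genes (down the page, grouped by class) in the 24 libraries (left to right, grouped by population with males left of females), as log2(normalised count + 1) minus the gene's mean over all libraries, with colours ending at -4 and 4. Libraries of a group resemble each other, Col4a1 and Col4a2 are low in DPP4_pos cells, and Col1a1 and Col1a2 are high in inguinal cells.

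FIP cells of gonadal fat had lower Col4a1, Col4a2, Col4a3, Col4a4 and Col15a1 and higher Col14a1 than APC cells, in both sexes. Of the 38 tested genes, 4 were called higher and 15 lower in M_FIP than in M_APC libraries, where 18.9% of all genes were called higher and 18.0% lower (limma, adjusted p under 0.05). In F_FIP against F_APC libraries 6 were called higher and 13 lower, where 21.3% of all genes were called higher and 18.1% lower. The median log2 fold change of the tested collagens was -0.30 in males and -0.28 in females, beside -0.03 and -0.003 over all genes. In both sexes together 3 collagens were higher (12.8% of all genes), 12 were lower (10.1% of all genes) and none was called in opposite directions (0.820% of all genes).

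Col14a1, a FACIT chain that binds fibril surfaces (Entrez 12818, chr15:55307644-55520803, GRCm38.p6 RefSeq gene span here and below), had 22684, 24616 and 22712 normalised counts in M_FIP libraries, against 1584, 1852 and 1965 in M_APC libraries. In females it had 30424, 30407 and 33021 in F_FIP, against 5343, 5729 and 6102 in F_APC libraries. Every FIP library was above every APC library, and the log2 fold changes of 3.70 ± 0.14 (SE) in males and 2.45 ± 0.14 in females correspond to 13.0-fold and 5.47-fold higher levels (limma, adjusted p = 8.09e-17 and 4.01e-13). Col16a1, another FACIT chain, had 1675, 2025 and 1978 in M_FIP against 896, 918 and 996 in M_APC libraries and 3304, 3136 and 2749.7 in F_FIP against 2246, 2334 and 1887 in F_APC libraries. Its groups did not overlap in either sex, with log2 fold changes of 1.01 ± 0.09 in males and 0.51 ± 0.09 in females (adjusted p = 2.69e-09 and 0.0001). Col8a1 was the third collagen called higher in both sexes, and its values are given below with the differences between the sexes.

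Col15a1, a multiplexin of the basement membrane zone (Entrez 12819, chr4:47207655-47313167), was lower in FIP cells in both sexes. It had 10370.3, 12140.5 and 13071 normalised counts in M_FIP against 35651, 30400.4 and 35777 in M_APC libraries, and 11023, 10907 and 7783 in F_FIP against 37635, 36200.0 and 28012 in F_APC libraries. FIP libraries were all below APC libraries, at log2 fold changes of -1.52 ± 0.18 and -1.78 ± 0.18 in males and females (adjusted p = 1.76e-07 and 1.26e-08). Col4a1 and Col4a2, the chains of the common type IV network, lie side by side (Entrez 12826, chr8:11198423-11312889 and Entrez 12827, chr8:11312805-11449287) and were both lower. Col4a1 had 48533, 57069 and 60858 in M_FIP against 106778, 99865 and 109621 in M_APC libraries, and 49611, 47470.0 and 38598 in F_FIP against 86660.4, 84364 and 70652 in F_APC libraries. Col4a2 had 25517, 30165 and 32672 in M_FIP against 55715, 50886 and 58365 in M_APC libraries, and 21524, 21245 and 16710.4 in F_FIP against 38688, 38174 and 31481 in F_APC libraries. The groups did not overlap, and the log2 fold changes were -0.93 ± 0.14 in males and -0.84 ± 0.14 in females for Col4a1 and, for Col4a2, -0.91 ± 0.15 and -0.87 ± 0.15 (largest adjusted p of the 4 tests = 3.66e-05).

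Col4a3 and Col4a4, which build the specialised type IV network of kidney and lung basement membranes, were lower in FIP cells as well. Col4a3 had 341, 332 and 366 in M_FIP against 976, 959.8 and 1001 in M_APC libraries, and 162, 160.3 and 125 in F_FIP against 614, 533 and 470.1 in F_APC libraries. Col4a4 had 391, 439 and 519 in M_FIP against 1301, 1065 and 1450.3 in M_APC libraries, and 159, 153 and 141 in F_FIP against 550.5, 501 and 545 in F_APC libraries. Neither chain overlapped between FIP and APC libraries, and the log2 fold changes were -1.50 ± 0.18 and -1.85 ± 0.18 for Col4a3 and -1.50 ± 0.14 and -1.81 ± 0.14 for Col4a4, males before females (largest adjusted p = 1.67e-07). Col23a1, a transmembrane collagen, had 68.0, 65.1 and 80.4 in M_FIP against 172, 148 and 161 in M_APC libraries and 52.3, 46.9 and 61.7 in F_FIP against 126, 79.7 and 109 in F_APC libraries. It was lower without overlap in both sexes, at log2 fold changes of -1.16 ± 0.18 in males and -0.94 ± 0.18 in females.

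Among the other classes, Col6a1, Col6a2 and Col6a3, the chains of the standard type VI trimer, were called lower in both sexes, with log2 fold changes of -0.31, -0.41 and -0.49 in males and -0.28, -0.45 and -0.60 in females. Of the 10 tested fibrillar chains, 2 were called in males (Col27a1 and Col5a3, both lower) and 2 in females (Col1a1 higher, Col27a1 lower). Col1a2 and Col3a1 were called in neither sex, at 0.08 ± 0.14 and -0.10 ± 0.18 in males and 0.21 ± 0.14 and 0.37 ± 0.18 in females on the log2 scale (smallest adjusted p of the 4 = 0.107).

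Markers of mural cells and adipocytes, which also make basement membrane, were lower as well. The 8 mural markers, with 4 called lower in males and 7 in females and none higher, summed to 1879 to 2063 normalised counts in M_FIP against 3302 to 3938 in M_APC libraries, and to 789 to 842 in F_FIP against 2061 to 2524 in F_APC libraries. The 6 adipocyte markers, 5 of them called lower in males and 6 in females, summed to 329.7 to 389 in M_FIP against 869 to 1111 in M_APC libraries, and to 127 to 159.5 in F_FIP against 1274 to 1477 in F_APC libraries. Of 7 endothelial markers, also of cells that make basement membrane, 1 was called higher and none lower in males and 1 higher and 4 lower in females. Their sum was higher in FIP cells, at 5898 to 6777 in M_FIP against 3615 to 4124 in M_APC libraries and 5511 to 6065 in F_FIP against 2925 to 4062 in F_APC libraries, and Tek, which encodes the angiopoietin receptor, had 4039 to 4234 in M_FIP against 1619 to 1734 in M_APC and 4688 to 5245 in F_FIP against 1696 to 1875 in F_APC libraries. Of 8 mesothelial markers none were called higher and none lower in males and none higher and 7 lower in females, with sums of 3799.5 to 4102 in M_FIP against 2777 to 3089.7 in M_APC and 3791 to 4214 in F_FIP against 4341 to 4498 in F_APC libraries. Of 7 macrophage markers none were called higher and 2 lower in males and none higher and 7 lower in females, with sums of 249 to 354 in M_FIP against 385 to 553 in M_APC and 112 to 141 in F_FIP against 248 to 454 in F_APC libraries. No marker of these 5 lists was at 0 in all libraries of any of the 8 groups, and their part in the type IV and type XV differences was not tested.

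**Figure D3:**
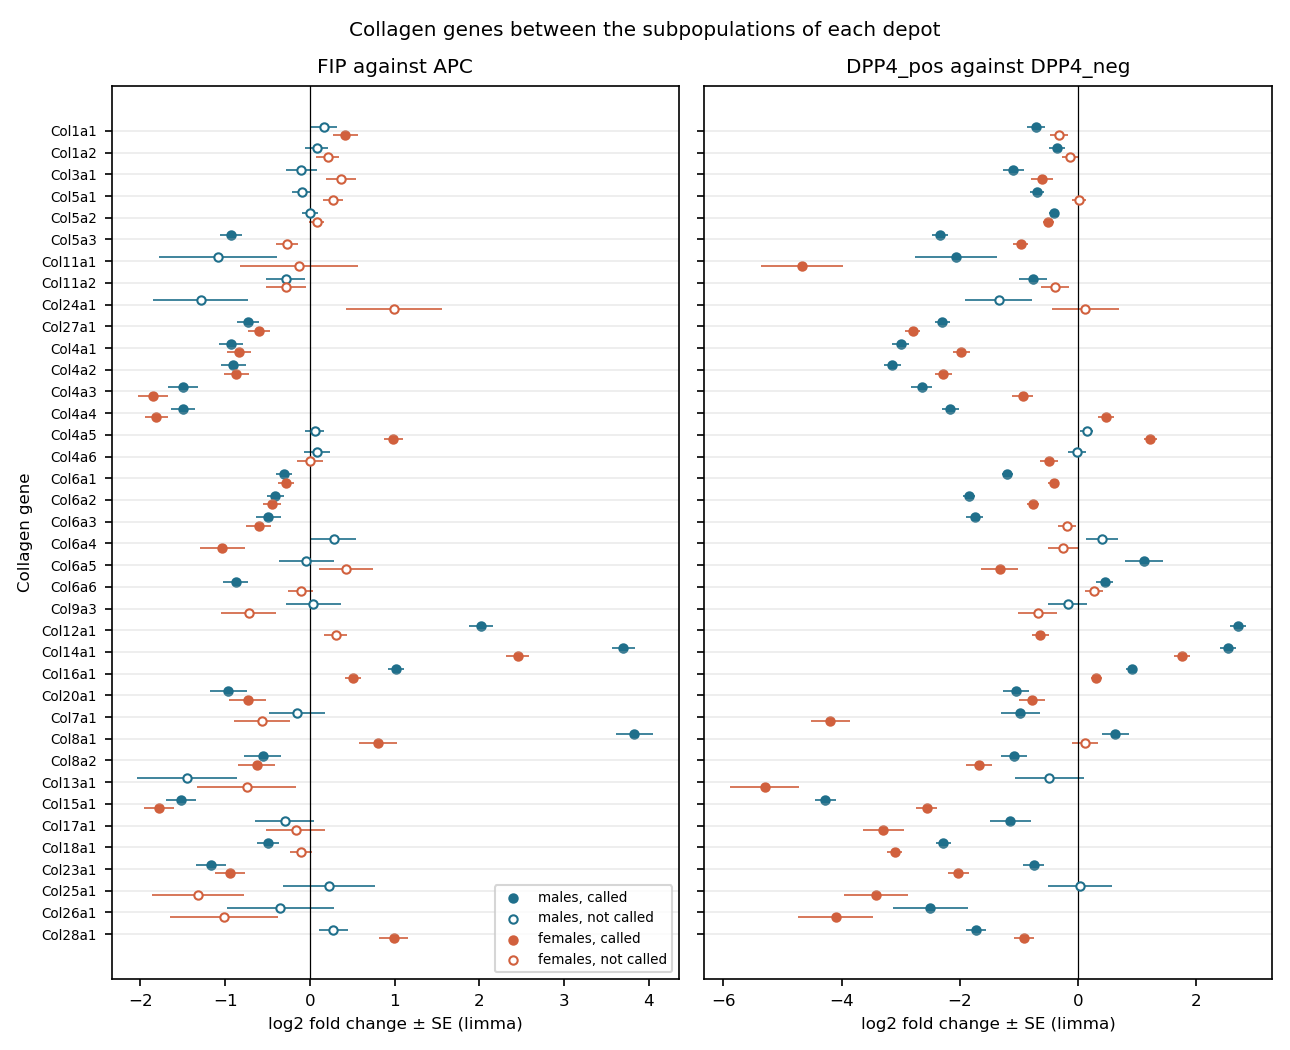
Log2 fold change ± SE of each tested collagen gene for FIP against APC and for DPP4_pos against DPP4_neg libraries (blue males, orange females), with filled points for genes called at adjusted p under 0.05. Col14a1 stands at the high end of both comparisons, and Col15a1 is lower in FIP and DPP4_pos cells in both sexes.

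DPP4_pos cells of inguinal fat had lower Col4a1, Col4a2, Col15a1 and Col18a1 and higher Col14a1 than DPP4_neg cells, in both sexes. In males 6 of the 38 tested collagens were called higher and 25 lower in DPP4_pos cells, where 25.2% of all genes were called higher and 25.3% lower. In females 4 were called higher and 24 lower, where 22.6% of all genes were called higher and 27.1% lower. The 24 include Col11a1, Col13a1, Col25a1 and Col26a1, which passed the filter on low values only through F_DPP4_neg libraries. Their direction was thus largely set by the filter. The collagens' median log2 fold change was -1.01 in males and -0.72 in females, beside 0.00 and -0.04 over all genes. In both sexes together 2 were higher (14.2% of all genes), 19 lower (14.4%) and 3 called in opposite directions (3.36%), namely Col12a1, Col4a4 and Col6a5.

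Col14a1 had 26993, 27309 and 25511 normalised counts in M_DPP4_pos against 4009.7, 5033 and 4626 in M_DPP4_neg libraries, and 43828, 47878 and 42959 in F_DPP4_pos against 18682, 11716 and 10354 in F_DPP4_neg libraries. All DPP4_pos libraries were above all DPP4_neg libraries of their sex, at log2 fold changes of 2.55 ± 0.14 in males and 1.77 ± 0.14 in females (adjusted p = 3.17e-14 and 6.92e-11). Col16a1 was called higher by 0.92 ± 0.09 in males and 0.31 ± 0.09 in females on the log2 scale (adjusted p = 8.04e-09 and 0.00726). Its female libraries had 5109, 4821 and 5762 in F_DPP4_pos against 4616, 3737 and 4285 in F_DPP4_neg, and that call did not hold without F_DPP4_pos replicate 3 (adjusted p = 0.0577), without F_DPP4_neg replicate 2 (adjusted p = 0.068) or with quantile normalisation (adjusted p = 0.528).

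Both multiplexins were lower in DPP4_pos cells. Col15a1 had 1846, 1407 and 976 normalised counts in M_DPP4_pos against 22558, 29439.9 and 27608 in M_DPP4_neg libraries, and 3193, 3159 and 3898 in F_DPP4_pos against 15964, 22265 and 22529 in F_DPP4_neg libraries. The groups were far from overlapping, and levels were 19.3-fold lower in males and 5.88-fold lower in females (log2 -4.27 ± 0.18 and -2.56 ± 0.18, adjusted p = 3.83e-16 and 1.69e-11). Col18a1, the related multiplexin that is the source of endostatin, had 2126, 2214 and 1917 in M_DPP4_pos against 9739, 10108 and 10377 in M_DPP4_neg libraries, and 1697, 1841 and 2123 in F_DPP4_pos against 12247, 17864 and 19119.5 in F_DPP4_neg libraries. It was lower without overlap, at log2 fold changes of -2.27 ± 0.13 in males and -3.10 ± 0.13 in females.

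Col4a1 had 16329.7, 13874 and 12177 in M_DPP4_pos against 98576, 122960.0 and 116640.0 in M_DPP4_neg libraries, and 17879.5, 17549 and 22040.1 in F_DPP4_pos against 64481, 84734 and 76152 in F_DPP4_neg libraries. Col4a2 had 7704, 6114 and 5118 in M_DPP4_pos against 48166, 60541 and 56820.2 in M_DPP4_neg libraries, and 8458, 7616 and 10329 in F_DPP4_pos against 35644, 47956 and 44297 in F_DPP4_neg libraries. No DPP4_pos library reached a DPP4_neg library of its sex for either chain. Log2 fold changes were -3.00 ± 0.14 and -1.97 ± 0.14 for Col4a1 and -3.14 ± 0.15 and -2.28 ± 0.15 for Col4a2, males before females. Not all type IV chains were lower. Col4a3 was called lower in both sexes, Col4a4 in males and Col4a6 in females. In females Col4a4 and Col4a5 were called higher, with Col4a5 at 2044, 2010 and 2104 in F_DPP4_pos against 1123, 802 and 750 in F_DPP4_neg libraries. Col27a1, a fibrillar chain best known from cartilage, had log2 fold changes of -2.29 ± 0.13 in males and -2.80 ± 0.13 in females, and Col5a3, a regulatory chain of type V collagen, of -2.33 ± 0.13 and -0.97 ± 0.13. Col27a1 ranged over 448 to 465 normalised counts in M_DPP4_pos against 2006 to 2498 in M_DPP4_neg libraries, and over 161 to 231 in F_DPP4_pos against 1107 to 1395 in F_DPP4_neg libraries. Col5a3 ranged over 9870.0 to 10807 in M_DPP4_pos against 47443 to 57224 in M_DPP4_neg libraries, and over 14329 to 19472 in F_DPP4_pos against 30977 to 35002 in F_DPP4_neg libraries, so neither gene overlapped.

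Of the main fibrillar chains, Col3a1 was called lower in DPP4_pos cells in both sexes, and Col1a1 in males and not in females. Col1a1 had log2 fold changes of -0.71 ± 0.15 in males (adjusted p = 0.000313) and -0.32 ± 0.15 in females (adjusted p = 0.0865), and Col3a1 of -1.09 ± 0.18 and -0.61 ± 0.18 (adjusted p = 1.38e-05 and 0.00652). Of the 10 tested fibrillar chains 9 were called lower in males and 5 in females, and none higher. The male Col3a1 value was 0 with quantile normalisation, a scaling that gives equal values to equal ranks, and Col3a1 held rank 2 in all 6 of these libraries.

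Mural and adipocyte markers were again lower along with Col4a1 and Col4a2, and the endothelial sum was higher. The mural sum was 272 to 466 in M_DPP4_pos against 989 to 1534 in M_DPP4_neg libraries, with 6 of 8 markers called lower and none higher, and 471 to 535 in F_DPP4_pos against 1287 to 1793 in F_DPP4_neg libraries, with 6 called lower and 1 higher. The adipocyte sum was 191 to 315 in M_DPP4_pos against 2155 to 2866 in M_DPP4_neg libraries, with 3 of 6 markers called lower, and 47.9 to 98.0 in F_DPP4_pos against 283 to 400.4 in F_DPP4_neg libraries, with 5 called lower. The endothelial sum was 4185 to 4447 in M_DPP4_pos against 949 to 1098 in M_DPP4_neg libraries and 6303 to 7302 in F_DPP4_pos against 1769.9 to 2596 in F_DPP4_neg libraries. Of its 7 markers 2 were called higher and 1 lower in males and 2 higher and 5 lower in females, and Tek had 3808 to 4032 in M_DPP4_pos against 618 to 709 in M_DPP4_neg and 4570.4 to 5494 in F_DPP4_pos against 968 to 1707 in F_DPP4_neg libraries. Of the mesothelial markers 1 was called higher and 1 lower in males and none higher and 4 lower in females, and of the macrophage markers none higher and 4 lower in males and none higher and 7 lower in females. Mesothelial sums were 50.7 to 101 in M_DPP4_pos against 48.1 to 90.3 in M_DPP4_neg and 459 to 683 in F_DPP4_pos against 6850.0 to 16548 in F_DPP4_neg libraries, of which the last hold Krt8, Krt18 and Krt19 at group means of 4567, 2214 and 4143, keratins that epithelium also makes. The part of these markers in the collagen differences was not tested.

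The comparison of FIP with APC and that of DPP4_pos with DPP4_neg share no libraries, and their collagens are set side by side here. Whether the libraries of the depots came from the same mice is not given, so the comparisons may not be independent. Of the 38 tested collagens 10 were called lower in both sexes of both comparisons (26.3%), where 4.63% of all genes were, and 2 were called higher (5.26%), where 6.92% of all genes were. The 10 are 83.3% of the 12 that were lower in FIP cells and 52.6% of the 19 that were lower in DPP4_pos cells. They are Col4a1, Col4a2, Col4a3, Col6a1, Col6a2, Col8a2, Col15a1, Col20a1, Col23a1 and Col27a1, and the 2 are Col14a1 and Col16a1.

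APC cells of gonadal fat had lower Col1a1, Col1a2 and Col3a1 than DPP4_neg cells of inguinal fat. The depots were divided into differently named populations, so depot and sort cannot be told apart in what follows, and these comparisons share libraries with those above. Against M_DPP4_neg, M_APC libraries had 9 collagens called higher and 21 lower, where 33.1% of all genes were called higher and 33.0% lower. Against F_DPP4_neg, F_APC libraries likewise had 9 called higher and 21 lower, where 26.8% of all genes were called higher and 32.2% lower. These 21 again include Col11a1, Col13a1, Col25a1 and Col26a1, which passed the filter only through F_DPP4_neg libraries. The collagens' median log2 fold change was -0.75 in males and -0.76 in females, beside 0.02 and -0.02 over all genes. In both sexes 4 were higher (17.8% of all genes), 15 lower (20.2%) and 5 opposite (5.44%). The 5 were Col13a1, Col17a1, Col6a1, Col6a2 and Col6a4. Of these, the type VI chains Col6a1, Col6a2 and Col6a4 were lower in M_APC and higher in F_APC than in DPP4_neg cells.

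Col1a1 had 50235, 52489.6 and 58748 normalised counts in M_APC against 400317, 449714 and 413129 in M_DPP4_neg libraries, and 62465, 60339.7 and 54733 in F_APC against 230642, 213032 and 276159 in F_DPP4_neg libraries. Col1a2 had 73616, 67026 and 77626 in M_APC against 272116, 310166 and 298703 in M_DPP4_neg libraries, and 72000.0, 72945 and 68017 in F_APC against 218609, 200719 and 239005 in F_DPP4_neg libraries. Col3a1 had 171933, 186829 and 188723 in M_APC against 592491, 663362 and 625229 in M_DPP4_neg libraries, and 213863, 221744 and 199376 in F_APC against 573276, 545632 and 668258 in F_DPP4_neg libraries. Every APC library lay well below every DPP4_neg library of its sex for these 3 chains. Levels of Col1a1 were 7.83-fold lower in males and 4.04-fold lower in females (log2 -2.97 ± 0.15 and -2.01 ± 0.15, adjusted p = 7.93e-15 and 2.57e-11). For Col1a2 the log2 fold changes were -2.01 ± 0.14 and -1.63 ± 0.14 and for Col3a1 -1.78 ± 0.18 and -1.49 ± 0.18, males before females, all called. The male Col3a1 value was again 0 with quantile normalisation, where the gene held rank 2 in all 6 libraries.

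Col12a1, Col14a1 and Col18a1 were also lower in APC cells. Col12a1, a FACIT chain of dense connective tissue (Entrez 12816, chr9:79598987-79721141), had 199, 183 and 208 in M_APC against 534, 752 and 757 in M_DPP4_neg libraries, and 403, 339 and 366 in F_APC against 2619, 3379 and 3079 in F_DPP4_neg libraries. Its groups did not overlap, and the log2 fold changes were -1.77 ± 0.14 and -3.03 ± 0.14 in males and females. Col14a1 had log2 fold changes of -1.34 ± 0.14 and -1.20 ± 0.14 and Col18a1 of -1.15 ± 0.13 and -2.50 ± 0.13, with no overlap between the groups. Their values in DPP4_neg libraries are given above, and Col18a1 had 4644, 4238 and 4729 in M_APC and 2869, 3268 and 2438 in F_APC libraries.

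Against this direction, a few chains were higher in APC cells. Col6a6, a long type VI chain that can stand in for the alpha3 chain, had 8384, 6959.7 and 8452 in M_APC against 804, 1371 and 1298 in M_DPP4_neg libraries, and 4186, 3472 and 3841 in F_APC against 2276, 1561 and 1534 in F_DPP4_neg libraries. It was higher without overlap by 2.81 ± 0.15 in males and 1.12 ± 0.15 in females on the log2 scale. Col4a4 had 569, 875 and 810.1 in M_DPP4_neg and 127, 133 and 156 in F_DPP4_neg libraries, below the APC values given above, and log2 fold changes of 0.77 ± 0.14 and 1.94 ± 0.14. Col4a3 had 563, 867 and 810.1 in M_DPP4_neg and 139.8, 135 and 157 in F_DPP4_neg libraries, and log2 fold changes of 0.41 ± 0.18 (adjusted p = 0.0422) and 1.89 ± 0.18 (adjusted p = 1.46e-09). The male Col4a3 call was lost without the filter on low values (adjusted p = 0.0645) and without M_APC replicate 1, 2 or 3 (adjusted p = 0.0783, 0.0692 and 0.0916) or M_DPP4_neg replicate 1 (adjusted p = 0.28). Col4a1 and Col4a2 were called in neither sex, with log2 fold changes of -0.09 ± 0.14 and -0.00063 ± 0.15 in males and 0.10 ± 0.14 and -0.23 ± 0.15 in females.

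Markers of other cell types differed in the same comparison. Of the 8 mesothelial markers 7 were called higher and none lower in males and 5 higher and 3 lower in females, and Wt1, which stromal cells of visceral fat also express, had 2488 to 2692 normalised counts in M_APC against 11.1 to 19.4 in M_DPP4_neg and 3376 to 3573 in F_APC against 44.5 to 56.5 in F_DPP4_neg libraries. Of the 7 endothelial markers 7 were called higher and none lower in males and 6 higher and none lower in females, of the 8 mural markers 5 higher and 1 lower and 4 higher and 2 lower, of the 6 adipocyte markers 5 higher and 1 lower and 5 higher and none lower, and of the 7 macrophage markers 1 higher and 1 lower and 1 higher and 3 lower, males before females. The sums of these lists stand above, apart from that of the macrophage markers, which was 398 to 669.5 in M_DPP4_neg and 369.9 to 865 in F_DPP4_neg libraries. The part of these markers in the levels of Col4a3, Col4a4, Col6a6 and the lower chains was not tested.

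FIP cells had higher Col4a1, Col4a2, Col6a5 and Col15a1 and lower Col1a1, Col1a2, Col3a1 and Col12a1 than DPP4_pos cells, in both sexes. In males 16 collagens were called higher and 9 lower in FIP cells, where 32.6% of all genes were called higher and 32.4% lower. In females 15 were called higher and 15 lower, where 22.1% of all genes were called higher and 22.6% lower. The collagens' median log2 fold change was 0.29 in males and -0.08 in females, beside 0.02 and 0.01 over all genes. In both sexes 12 were higher (16.4% of all genes), 7 lower (17.2%) and 2 opposite (2.65%), namely Col28a1 and Col4a4.

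Col6a5, another long type VI chain (Entrez 665033, chr9:105856070-105962463), had 14151, 14959 and 16518 normalised counts in M_FIP against 2228, 1346 and 885 in M_DPP4_pos libraries, and 4376, 4467 and 4329 in F_FIP against 1313, 673 and 606 in F_DPP4_pos libraries. FIP libraries were well above DPP4_pos libraries, at log2 fold changes of 3.45 ± 0.32 and 2.43 ± 0.32 in males and females (adjusted p = 8.15e-10 and 7.92e-07). Of the chains whose FIP and DPP4_pos values stand above, Col15a1 was higher by 3.11 ± 0.18 and 1.52 ± 0.18, Col4a1 by 1.98 ± 0.14 and 1.24 ± 0.14 and Col4a2 by 2.23 ± 0.15 and 1.17 ± 0.15 on the log2 scale, males before females. Col4a3 was higher by 1.56 ± 0.18 and 0.98 ± 0.18, and Col6a6 by 1.48 ± 0.15 and 0.73 ± 0.15, all without overlap. The mural sum was 1879 to 2063 in M_FIP against 272 to 466 in M_DPP4_pos libraries, and 789 to 842 in F_FIP against 471 to 535 in F_DPP4_pos libraries.

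More of the markers of other cell types were called higher than lower in FIP cells for most lists. Of the mural markers 7 were called higher and 1 lower in males and 6 higher and 2 lower in females, of the mesothelial 8 higher and none lower and 5 higher and 3 lower, of the endothelial 6 higher and none lower and 5 higher and 1 lower, of the adipocyte 2 higher and none lower and 4 higher and none lower, and of the macrophage markers 3 higher and 1 lower and 2 higher and 5 lower, males before females. The mesothelial sum was 3799.5 to 4102 in M_FIP against 50.7 to 101 in M_DPP4_pos and 3791 to 4214 in F_FIP against 459 to 683 in F_DPP4_pos libraries, with Wt1 at 3473 to 3634 in M_FIP and 3532 to 3912 in F_FIP libraries. The endothelial sum was 5898 to 6777 in M_FIP against 4185 to 4447 in M_DPP4_pos and 5511 to 6065 in F_FIP against 6303 to 7302 in F_DPP4_pos libraries, and the adipocyte sum 329.7 to 389 in M_FIP against 191 to 315 in M_DPP4_pos and 127 to 159.5 in F_FIP against 47.9 to 98.0 in F_DPP4_pos libraries. The part of these markers in the collagen differences was not tested.

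Col12a1 had 724, 938 and 751 in M_FIP against 4451, 4326 and 4489 in M_DPP4_pos libraries, and 554, 490.4 and 348 in F_FIP against 2001, 1907 and 1916 in F_DPP4_pos libraries. It was lower in FIP cells without overlap, at log2 fold changes of -2.47 ± 0.14 and -2.09 ± 0.14. Col1a1 had 50339, 62800.1 and 69276 in M_FIP against 240456, 267393 and 261959 in M_DPP4_pos libraries, and 87333, 84074 and 67139 in F_FIP against 183725, 171217 and 223894 in F_DPP4_pos libraries. Its log2 fold changes were -2.09 ± 0.15 in males and -1.28 ± 0.15 in females, and those of Col1a2 were -1.59 ± 0.14 and -1.28 ± 0.14. Col16a1, Col5a2 and Col3a1 were lower as well, at -0.96 ± 0.09 and -0.77 ± 0.09 for Col16a1, -0.51 ± 0.09 and -0.69 ± 0.09 for Col5a2, and for Col3a1 -0.79 ± 0.18 and -0.51 ± 0.18. The female Col3a1 call was lost without the filter on low values (adjusted p = 0.0924) and without F_FIP replicate 3 or F_DPP4_pos replicate 3 (adjusted p = 0.107 and 0.108), and the male Col5a2 call with quantile normalisation (adjusted p = 0.487).

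**Figure D4:**
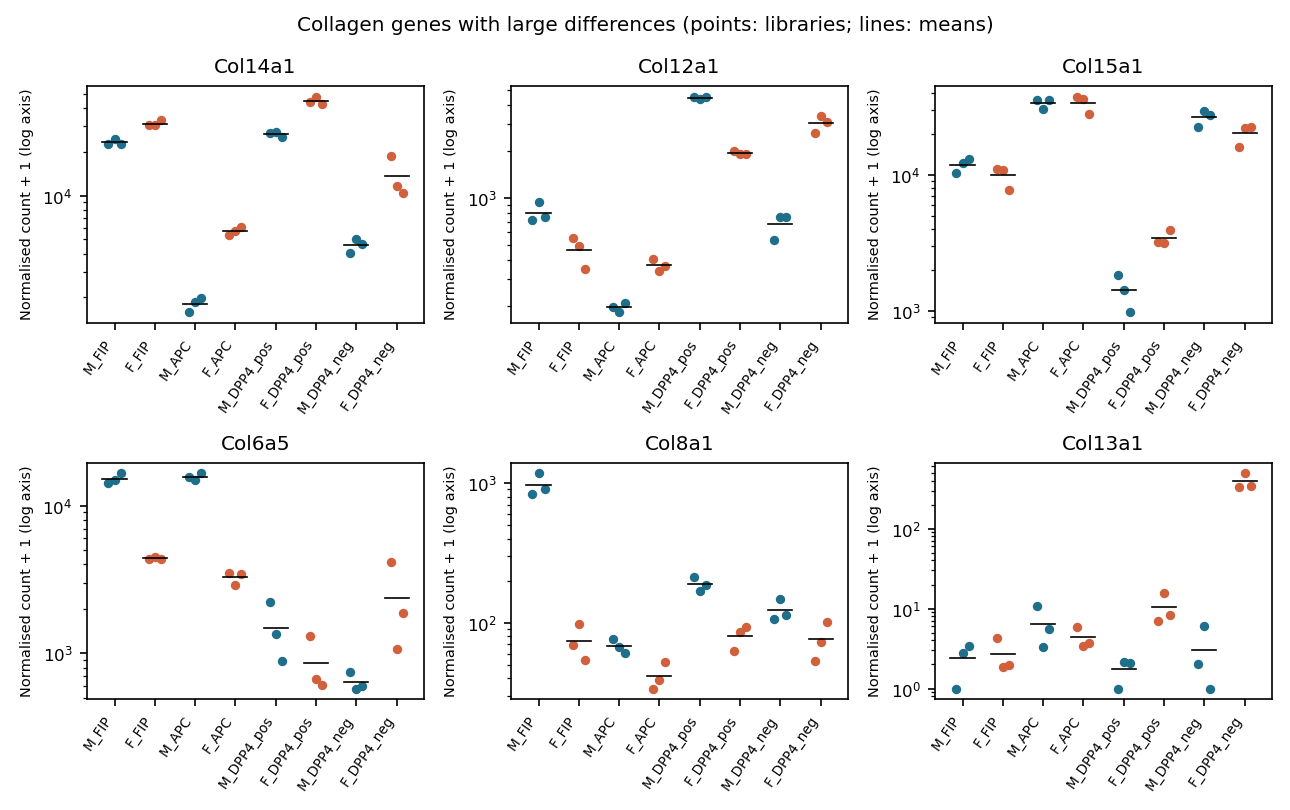
Normalised count + 1 on a log axis for Col14a1, Col12a1, Col15a1, Col6a5, Col8a1 and Col13a1 in the 8 groups, with a point per library (blue males, orange females) and a line at the mean. Col8a1 stands out in M_FIP libraries, Col13a1 in F_DPP4_neg libraries and Col6a5 in male gonadal libraries.

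Most type IV chains were higher in male than in female cells in 3 of the 4 populations. In APC libraries all 6 type IV chains were called higher in males, in FIP and in DPP4_neg libraries 5 were higher and none lower, and in DPP4_pos libraries 2 were higher (Col4a3 and Col4a6) and 2 lower (Col4a1 and Col4a2). Over all tested collagens, 13 were called higher and 9 lower in M_APC than in F_APC libraries, where 22.4% of all genes were called higher and 22.1% lower. In M_FIP against F_FIP libraries 10 were higher and 10 lower (18.2% and 19.0% of all genes). In M_DPP4_neg against F_DPP4_neg 16 were higher and 17 lower (27.1% and 30.3%). The 17 include Col11a1, Col13a1, Col25a1 and Col26a1, which passed the filter only through F_DPP4_neg libraries. In M_DPP4_pos against F_DPP4_pos 11 were higher and 15 lower (27.1% and 25.5%).

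The X-linked pair was higher in male than in female gonadal cells. Col4a6 had 821, 844 and 894 normalised counts in M_FIP against 82.3, 82.7 and 93.5 in F_FIP libraries, and 838, 742 and 833 in M_APC against 86.1, 71.3 and 104 in F_APC libraries. In inguinal fat it had 83.6, 61.1 and 63.9 in M_DPP4_pos against 58.0, 62.4 and 41.3 in F_DPP4_pos libraries, and 63.9, 71.5 and 74.0 in M_DPP4_neg against 62.0, 86.7 and 77.6 in F_DPP4_neg libraries. The male libraries of gonadal fat were 9.81-fold higher in FIP and 9.23-fold higher in APC cells (log2 3.29 ± 0.16 and 3.21 ± 0.16, adjusted p = 1.4e-14 and 1.91e-14), and the differences were 0.37 ± 0.16 in DPP4_pos (adjusted p = 0.0498) and -0.10 ± 0.16 in DPP4_neg cells (adjusted p = 0.608).

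Col4a5, which pairs with Col4a6 in the basement membrane of smooth muscle, was also higher in male gonadal cells. It had 4549.8, 5185 and 5156 in M_FIP against 2108, 2044 and 2062 in F_FIP libraries, and 4822, 4662 and 4800.1 in M_APC against 931, 1021 and 1202 in F_APC libraries. In inguinal fat it had 2503, 2321 and 2459 in M_DPP4_pos against 2044, 2010.3 and 2104 in F_DPP4_pos libraries, and 1876, 2275 and 2420.5 in M_DPP4_neg against 1123, 802 and 749.8 in F_DPP4_neg libraries. Log2 differences were 1.26 ± 0.11 in FIP, 2.19 ± 0.11 in APC, 1.31 ± 0.11 in DPP4_neg and 0.24 ± 0.11 in DPP4_pos cells, of which the last was not called (adjusted p = 0.0685). The per-kilobase ratio of Col4a5 to Col4a6 was 5.92 in M_FIP and 6.04 in M_APC cells, against group means of 12.4 to 40.1 elsewhere.

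**Figure D5:**
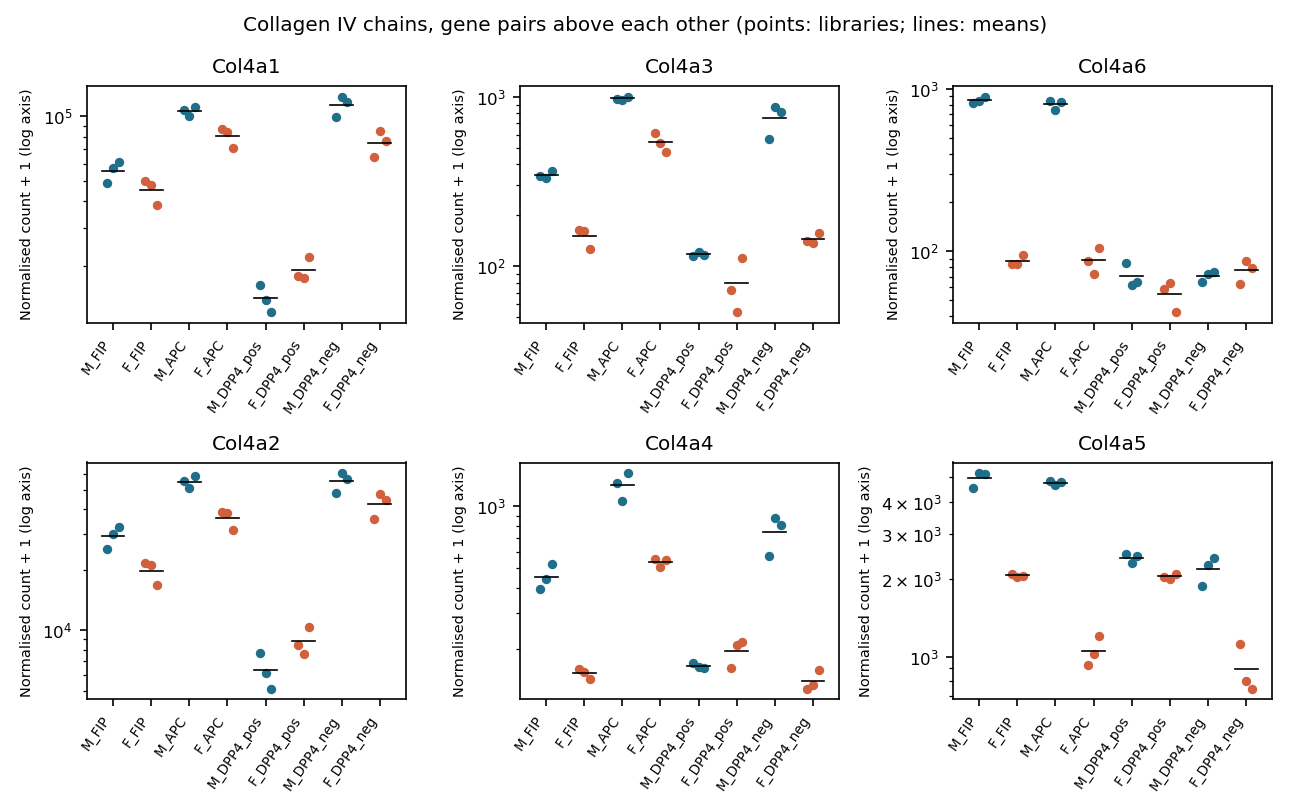
Normalised counts of the 6 type IV collagen chains on log axes in the 8 groups, with a point per library (blue males, orange females) and a line at the mean. The male gonadal libraries of Col4a6 lie between 742 and 894, and all other libraries lie at or under 104.

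Col4a4 and Col4a3 followed the same direction in the groups where they were called. Col4a4 was higher in males by 1.56 ± 0.14 in FIP, 1.25 ± 0.14 in APC and 2.41 ± 0.14 in DPP4_neg cells on the log2 scale, and Col4a3 by 1.22 ± 0.18, 0.87 ± 0.18 and 2.34 ± 0.18. Male and female libraries of these populations did not overlap for either chain, as the values above show. The mural sum was higher in male than in female FIP libraries and in APC libraries, and M_DPP4_neg (989 to 1534) and F_DPP4_neg (1287 to 1793) libraries overlapped. Of the 6 adipocyte markers 6 were called higher and none lower in FIP, 1 higher and 1 lower in APC and 4 higher and none lower in DPP4_neg cells. Their sum was 329.7 to 389 in M_FIP against 127 to 159.5 in F_FIP, 869 to 1111 in M_APC against 1274 to 1477 in F_APC, and 2155 to 2866 in M_DPP4_neg against 283 to 400.4 in F_DPP4_neg libraries, where Plin4 alone had 1854 to 2663 against 204 to 274. Of the 7 endothelial markers 4 were called higher and none lower in FIP, 3 higher and none lower in APC and none higher and 5 lower in DPP4_neg cells, of the macrophage markers 5 higher and none lower, 2 higher and none lower and none higher and 1 lower, and of the mesothelial markers 2 higher and none lower, none higher and 5 lower and none higher and 4 lower. The part of these markers in the type IV differences was not tested.

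Col6a5 was called higher in males in APC, FIP and DPP4_pos cells and lower in males in DPP4_neg cells. Male gonadal libraries, at 15562, 14798 and 16561 in M_APC, were above the female ones, at 3511, 2888 and 3458 in F_APC, with log2 differences of 2.25 ± 0.32 in APC and 1.79 ± 0.32 in FIP cells (adjusted p = 2.55e-06 and 8.18e-05). M_DPP4_pos libraries had 2228, 1346 and 885, against 1313, 673 and 606 in F_DPP4_pos libraries, and these ranges overlapped. M_DPP4_neg libraries had 746, 577 and 599, against 4170.2, 1073 and 1884 in F_DPP4_neg libraries, a log2 difference of -1.68 ± 0.32 (adjusted p = 8.69e-05). The 3 female libraries of that group were far apart, and all of them were above the male ones.

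Col28a1, a chain of type XXVIII collagen (Entrez 213945, chr6:7997100-8193709), was lower in males in all 4 populations. It had 44.4, 61.5 and 50.4 in M_FIP against 231, 231 and 185 in F_FIP libraries, and 49.4, 37.1 and 41.9 in M_APC against 123, 95.1 and 106 in F_APC libraries. In inguinal fat it had 30.5, 26.5 and 30.8 in M_DPP4_pos against 383, 336 and 329.6 in F_DPP4_pos libraries, and 104, 97.0 and 96.2 in M_DPP4_neg against 921, 488 and 625 in F_DPP4_neg libraries. No male library reached a female library of its population, and the log2 differences were -2.03 ± 0.17 in FIP, -1.32 ± 0.17 in APC, -3.53 ± 0.17 in DPP4_pos and -2.72 ± 0.17 in DPP4_neg cells (largest adjusted p = 7.37e-07).

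Col14a1 and Col16a1 were also lower in males in every population. Log2 differences of Col14a1 were -0.42 ± 0.14 in FIP, -1.67 ± 0.14 in APC, -0.75 ± 0.14 in DPP4_pos and -1.53 ± 0.14 in DPP4_neg cells, and those of Col16a1 were -0.70 ± 0.09, -1.20 ± 0.09, -0.51 ± 0.09 and -1.11 ± 0.09 (largest adjusted p of the 8 tests = 0.0157). Col6a3, the long chain of the standard type VI trimer, was called lower in males in 3 populations and higher in the fourth, with log2 differences of -0.70 ± 0.15 in FIP, -0.81 ± 0.15 in APC, -1.06 ± 0.15 in DPP4_pos and 0.51 ± 0.15 in DPP4_neg cells. Col3a1 was lower in M_FIP than in F_FIP libraries, with a log2 difference of -0.68 ± 0.18 (adjusted p = 0.0037).

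In DPP4_pos cells Col27a1, Col20a1, Col8a1 and Col12a1 were called higher in males, as was the low chain Col6a4, at 55.4, 49.6 and 48.5 in M_DPP4_pos against 19.0, 17.6 and 15.7 in F_DPP4_pos libraries. Col27a1 had 465, 448 and 448 in M_DPP4_pos against 231, 165 and 161 in F_DPP4_pos libraries, and Col12a1 had the values given above. Their groups did not overlap, and the log2 differences were 1.30 ± 0.13 for Col27a1, 1.26 ± 0.22 for Col20a1, 1.25 ± 0.22 for Col8a1 and 1.19 ± 0.14 for Col12a1. Col15a1 was lower in males there, with a log2 difference of -1.32 ± 0.18 (adjusted p = 1.12e-06). Col20a1 was also higher in males in DPP4_neg cells, at 191, 322 and 295 in M_DPP4_neg against 78.7, 104 and 89.2 in F_DPP4_neg libraries, a log2 difference of 1.53 ± 0.22.

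Several collagens, among them Col7a1, Col13a1 and Col25a1, were higher in every F_DPP4_neg library than in any library of the other groups. The same held for Col5a2, Col11a1, Col18a1, Col23a1 and Col28a1, with Col23a1 at 276 to 378 against at most 172 elsewhere. Col11a1, Col13a1 and Col25a1 passed the filter on low values only through F_DPP4_neg libraries. Their place as highest there was thus largely set by the filter. Col13a1, a transmembrane collagen of cell junctions (Entrez 12817, chr10:61838234-61979206), had 1.01, 5.11 and 0 in M_DPP4_neg against 331, 492 and 344 in F_DPP4_neg libraries and at most 14.6 in any library of the other groups. The log2 difference between the sexes was -7.38 ± 0.59 on the scale with a pseudocount of 1, given for description only. Col7a1, the anchoring fibril chain beneath epithelia, had 56.8, 98.0 and 62.9 in M_DPP4_neg against 232, 235 and 452 in F_DPP4_neg libraries, a log2 difference of -2.03 ± 0.33, and 53.8 to 73.5 in male gonadal libraries. Col17a1, the hemidesmosome collagen, had 11.2, 16.3 and 11.1 in M_DPP4_neg against 43.7, 23.2 and 52.8 in F_DPP4_neg libraries, and male gonadal libraries overlapped that range, at 22.8 to 38.5. Col25a1 had 0, 1.02 and 0 in M_DPP4_neg against 15.9, 22.4 and 14.9 in F_DPP4_neg libraries. Of the chains below the filter, Col9a1 reached 6.19 to 23.9 and Col9a2 9.29 to 38.0 in F_DPP4_neg libraries, and no untested chain passed 9.19 in any library of any other group.

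The epithelial signal described above was in the same 3 libraries. All 8 epithelial markers were called lower in M_DPP4_neg than in F_DPP4_neg libraries, and no marker was at 0 in F_DPP4_neg, while Krt17 was at 0 in all M_DPP4_neg libraries. The part of epithelial RNA in the levels of Col7a1, Col9a1, Col9a2, Col13a1, Col17a1 and Col25a1, or of any other collagen in F_DPP4_neg libraries, was not tested. The abundant chain Col12a1 was lower in males there, at 534, 752 and 757 in M_DPP4_neg against 2619, 3379 and 3079 in F_DPP4_neg libraries (log2 -2.16 ± 0.14).

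The population and depot fold changes differed between the sexes for many collagens, though in FIP against DPP4_pos about as often as for all genes. The difference between the male and the female fold change was called for 8 of 38 collagens (21.1%) in FIP against APC, beside 10.8% of all genes. It was called for 24 (63.2%) in DPP4_pos against DPP4_neg, beside 29.0%, and for 27 (71.1%) in APC against DPP4_neg, beside 42.9%. Both of the latter comparisons include the F_DPP4_neg libraries with the epithelial signal, and its part in these counts was not tested. Col7a1, Col13a1, Col18a1, Col23a1 and Col25a1, which were highest in that group, were called in both. The 14 (36.8%) called in FIP against DPP4_pos lie near the 34.9% of all genes. Calls were split as 5 higher and 3 lower in males, 12 and 12, 15 and 12, and 10 and 4 in that order of comparisons. Among all called genes 50.6%, 56.6%, 52.6% and 45.0% were higher in males, in the same order. The splits were 5 and 5 for the first comparison with only its own groups in the fit, 8 and 13 for the second with edgeR, and 18 and 9 for the third with quantile normalisation.

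Col8a1, a short chain of type VIII collagen found in vessel walls (Entrez 12837, chr16:57624256-57754737), had the largest difference in FIP against APC. It had 834, 1174 and 910.1 normalised counts in M_FIP against 75.1, 66.1 and 60.0 in M_APC libraries, and 68.1, 96.4 and 52.7 in F_FIP against 32.7, 38.1 and 51.2 in F_APC libraries. The M_FIP libraries were the only ones above 213, and the log2 fold changes were 3.83 ± 0.22 in males and 0.80 ± 0.22 in females, with a difference of 3.03 ± 0.32 (adjusted p = 4.34e-07). The male-female difference in FIP cells was 3.76 ± 0.22. Col12a1 rose in M_FIP, at 724, 938 and 751 against 199, 183 and 208 in M_APC libraries, by 2.02 ± 0.14, and in females its log2 fold change was 0.31 ± 0.14, with a difference of 1.71 ± 0.19 (adjusted p = 1.46e-06).

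Col12a1 turned round between the sexes in inguinal fat. It had 4451, 4326 and 4489 in M_DPP4_pos against 534, 752 and 757 in M_DPP4_neg libraries, and 2001, 1907 and 1916 in F_DPP4_pos against 2619, 3379 and 3079 in F_DPP4_neg libraries. DPP4_pos libraries were above DPP4_neg libraries in males and below them in females, at log2 fold changes of 2.72 ± 0.14 and -0.63 ± 0.14 (difference 3.35 ± 0.19, adjusted p = 6.64e-12). Col4a4 turned the other way, with 171, 163 and 161 in M_DPP4_pos against 569, 875 and 810.1 in M_DPP4_neg libraries and 160.0, 209 and 216 in F_DPP4_pos against 127, 133 and 156 in F_DPP4_neg libraries, a difference of -2.64 ± 0.20 between log2 fold changes (adjusted p = 4.15e-10).

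The calls among genes that make, process and bind collagen are to be read against the shares of all genes called in each direction, which were 18.0 to 21.3% for FIP against APC, 22.6 to 27.1% for DPP4_pos against DPP4_neg, 26.8 to 33.1% for APC against DPP4_neg and 22.1 to 32.6% for FIP against DPP4_pos. Of 5 crosslinking enzymes of the lysyl oxidase family, 4 were called higher and 1 lower in M_FIP than in M_APC libraries, 4 higher and none lower in F_FIP than in F_APC, 3 higher in M_DPP4_pos than in M_DPP4_neg and 4 higher in F_DPP4_pos than in F_DPP4_neg libraries. Loxl1 had log2 fold changes of 1.03 and 1.20 in FIP and 1.02 and 0.78 in DPP4_pos cells, males before females. None of the 5 was called higher in gonadal than in inguinal cells, with 4 lower in males and 3 in females for APC against DPP4_neg, and 4 lower in each sex for FIP against DPP4_pos. The list's median log2 fold change in M_FIP against M_APC was 0.50, beside -0.03 over all genes.

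Chaperones and modifying enzymes, 22 genes of procollagen folding and hydroxylation, were mostly lower in gonadal than in inguinal cells. For APC against DPP4_neg, 2 were called higher and 16 lower in males and 6 higher and 12 lower in females, and for FIP against DPP4_pos 4 higher and 14 lower in males and 2 higher and 17 lower in females. The list's medians were -0.50 and -0.19 for the first and -0.45 and -0.28 for the second comparison, beside medians between -0.02 and 0.02 over all genes. Serpinh1, the collagen chaperone of the endoplasmic reticulum, had -1.13 in males and -0.42 in females for APC against DPP4_neg, and P4ha3, a prolyl hydroxylase subunit, -4.20 and -3.49. For FIP against APC, 2 were higher and 9 lower in males and 3 higher and 12 lower in females, and for DPP4_pos against DPP4_neg 3 higher and 12 lower in males and 5 higher and 7 lower in females.

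Of the 8 genes of propeptide processing, 4 were called higher and 2 lower in M_FIP than in M_APC, 2 and 1 in F_FIP than in F_APC, 5 and 3 in M_DPP4_pos than in M_DPP4_neg, and 4 and 2 in F_DPP4_pos than in F_DPP4_neg libraries. The F_FIP counts are close to the shares of all genes. Pcolce2, an enhancer of procollagen C-proteinase, was higher in all 4, by 2.33, 1.60, 1.37 and 1.23 in that order on the log2 scale. Bmp1, that proteinase, was higher by 0.68, 0.72, 1.06 and 0.65. For APC against DPP4_neg 2 were higher and 5 lower in males and 4 and 3 in females, and for FIP against DPP4_pos 3 and 4 in males and 3 and 5 in females.

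Among 9 tested collagen receptors, 5 were called higher and 2 lower in FIP than in APC cells in each sex, 4 and 2 in M_DPP4_pos than in M_DPP4_neg cells and 3 and 3 in F_DPP4_pos than in F_DPP4_neg cells, where the counts of 2 and 3 lie near the shares of all genes. Itga2 and Itga11, collagen-binding integrin subunits, and Ddr2, a receptor kinase for fibrillar collagen, were higher in all 4, with log2 fold changes in that order of 2.48, 2.71, 2.28 and 1.96 for Itga2, 1.53, 1.40, 1.55 and 1.65 for Itga11, and 1.11, 1.03, 0.97 and 0.97 for Ddr2. Of 12 fibril-binding proteoglycans and organisers, 5 were higher and 4 lower in M_FIP than in M_APC, 3 and 5 in F_FIP than in F_APC, 5 and 4 in M_DPP4_pos than in M_DPP4_neg, and 7 and 4 in F_DPP4_pos than in F_DPP4_neg cells. For APC against DPP4_neg, 4 of these 12 were higher and 6 lower in males and 6 higher and 2 lower in females, and for FIP against DPP4_pos 4 and 5 in males and 4 and 6 in females. Thbs2, a matricellular regulator of fibril assembly and an extreme of this list, had log2 fold changes of -4.58 in males and -4.21 in females for APC against DPP4_neg.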

How the data were processed

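The deposited table holds gene counts that the authors scaled per library, a signal of normalised counts for 27179 genes by Entrez ID and symbol. The submitters' processing notes name Trim Galore 0.4.1, HISAT2 2.0.1, featureCounts 1.4.6, DESeq2 1.6.3 and the builds GRCm38 and mm10, and their roles, the gene annotation and the strand setting are not given in the sources used here. All nonzero values of each library were whole multiples, within 0.01 read, of the value of 1 read, so 100% of values gave whole reads.

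From the deposited signal, log2(value + 1) of the 14517 genes with at least 10 in at least 3 libraries was fitted in 1 model of all 8 groups with limma 3.58.1 (R 4.3.3, mean-variance trend). P-values were adjusted by Benjamini-Hochberg over all genes of a contrast and called under 0.05. The pseudocount of 1 makes the fold changes of low genes smaller than they were, and SE is limma's. The scripts were tested on simulated data. Members and lists were chosen with earlier results of these data known.

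Per-library values are printed for members with calls of 1 direction in males and females, no overlap and a mean of at least 100, up to 6 each way, for up to 4 each way between sexes, and for up to 3 each way for differences. Other collagens named are members too. Alternatives were edgeR 4.0.16 (quasi-likelihood) and DESeq2 1.42.0 on recovered reads, TMM scaling, quantile normalization, a pseudocount of 10, no filter, only the groups compared, a replicate block and each library left out. On recovered reads edgeR called 5466 genes for FIP against APC in males and 5687 in females.

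Exon lengths came from GENCODE M21 basic for all 44 collagens, and promoter windows from RefSeq on GRCm38.p6 for 35 of them. Genes without a symbol took 0.0585 to 0.0765% of reads.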

Additional observations from a re-analysis of the deposited data

Results flagged for a closer look

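Each result here is a fold change that differed between males and females by a test of the difference itself (limma, adjusted p under 0.05), for the 3 largest positive and 3 largest negative differences of each comparison. Values are the male minus the female log2 fold change.

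For FIP against APC the differences were 3.03 for Col8a1 (3.83 in males, 0.80 in females), 1.71 for Col12a1 (2.02 and 0.31) and 1.32 for Col6a4 (0.28 and -1.04). They were -0.93 for Col4a5 (0.06 in males, 0.99 in females), -0.77 for Col6a6 (-0.88 and -0.11) and -0.66 for Col5a3 (-0.94 and -0.28). Col6a4, a low chain with 18.2 to 60.8 normalised counts in gonadal libraries, and Col5a3 and Col6a6 lost the call when 1 of some single libraries was left out.

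For DPP4_pos against DPP4_neg they were 4.82 for Col13a1 (-0.48 in males, -5.30 in females), 3.44 for Col25a1 (0.03 and -3.41) and 3.35 for Col12a1 (2.72 and -0.63). They were -2.64 for Col4a4 (-2.16 in males, 0.48 in females), -1.72 for Col15a1 (-4.27 and -2.56) and -1.71 for Col4a3 (-2.64 and -0.93). The Col13a1 and Col25a1 differences rest on F_DPP4_neg libraries against groups near 0, and edgeR on recovered reads called neither (adjusted p = 0.13 and 0.189).

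For APC against DPP4_neg they were 7.83 for Col13a1 (1.33 in males, -6.50 in females), 3.93 for Col6a5 (4.62 and 0.68) and 3.31 for Col4a6 (3.51 and 0.20). They were -2.15 for Col6a4 (-0.73 in males, 1.42 in females), -1.48 for Col4a3 (0.41 and 1.89) and -1.36 for Col9a3 (-1.73 and -0.37). The Col13a1 difference again rests on F_DPP4_neg libraries, through which alone the gene passed the filter on low values. The Col9a3 call was lost with only the groups compared in the fit (adjusted p = 0.0516) and without M_APC replicate 2, M_DPP4_neg replicate 1 or F_DPP4_neg replicate 2 (adjusted p = 0.0786, 0.0506 and 0.0789).

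For FIP against DPP4_pos they were 2.92 for Col4a6 (3.61 in males, 0.69 in females), 2.51 for Col8a1 (2.35 and -0.16) and 2.31 for Col13a1 (0.36 and -1.95), whose call was lost under many alternatives. They were -1.48 for Col6a4 (-0.86 in males, 0.62 in females), -1.15 for Col27a1 (-0.07 and 1.08) and -0.98 for Col20a1 (-0.13 and 0.85). The Col20a1 call was lost without F_FIP replicate 3 (adjusted p = 0.0551) and without F_DPP4_pos replicate 3 (adjusted p = 0.0609).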

How the results depend on the processing

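The counts of collagens called stayed within 1.5 times their values under every alternative that kept all libraries. Leaving out each library in turn gave 16 to 19 called collagens for FIP against APC in each sex, 26 to 31 (males) and 26 to 28 (females) for DPP4_pos against DPP4_neg, 25 to 29 and 27 to 31 for APC against DPP4_neg, and 25 to 26 and 25 to 29 for FIP against DPP4_pos. It gave 20 to 23 in APC, 17 to 22 in FIP, 30 to 33 in DPP4_neg and 20 to 27 in DPP4_pos cells between sexes, and 6 to 10, 21 to 23, 22 to 27 and 13 to 16 for the differences between sexes. Of 386 called gene results 300 kept their call under every alternative run on them, 85 lost it under at least 1 and 1 changed sign. Of the 386, 17 results of low chains were not tested under at least 1 alternative, 12 of them with only the groups compared. The sign change was Col1a1 in the difference between sexes for APC against DPP4_neg (0.0216 with quantile normalization, cause not tested). Quantile normalization moved the median of all genes by -0.08 to 0.13 (log2), and the other alternatives by less than 0.1.

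Same-numbered libraries did not deviate together (r = -0.173 to 0.201, above 0.1 in 4 of 84 pairs). With 3 libraries per group and no labels of mice, this cannot show whether equal numbers stand for the same mouse or sort. With a replicate block, 19 (males) and 20 (females) collagens were called for FIP against APC, 31 and 28 for DPP4_pos against DPP4_neg, 29 and 31 for APC against DPP4_neg, and 25 and 30 for FIP against DPP4_pos.

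Depth limits the chains near 10 normalised counts, such as Col25a1 and Col26a1, and groups of 3 libraries limit the precision of each spread.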
